A study of Mus musculus with 13 samples.

Results

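The genes described here are 6 Fc receptor and Fc receptor-like genes of mouse B cells: Fcgr2b, Fcrl1, Fcrl5, Fcrla, Fcrls and Fcer2a. They were taken by symbol from the deposited read counts, in which they are 6 of 23337 rows, and all 6 symbols had a row in every library. RNA-seq was made in 13 libraries from primary spleen B cells that had passed a negative selection with CD43 beads, which also holds back B-1 and plasma cells. Control cells were Regnase-1+/+ hCD20TamCre and deficient cells were Regnase-1f/f hCD20TamCre. All 4 groups therefore carry the tamoxifen-inducible Cre driven by human CD20 sequences, which acts in B cells. Each genotype was measured untreated (4 control and 3 deficient libraries) and after 4 h with an anti-IgM F(ab')2 fragment, which crosslinks the B cell receptor (BCR; 3 libraries of each genotype). No source used here gives the age of the mice, the tamoxifen dose or the time for which untreated cells were kept. The labels number the libraries but do not say that each comes from a separate mouse. If some do not, the p-values cover only a technical spread.

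Fc receptors bind the constant part of antibodies and so couple antibody that has already been made to the cell that carries the receptor. Fcgr2b encodes FcγRIIB, the inhibitory IgG receptor of B cells, which dampens BCR signals through an immunoreceptor tyrosine-based inhibitory motif (ITIM) when antigen and IgG are bound together. An F(ab')2 fragment has no Fc part and does not engage it. Fcer2a encodes CD23, the low-affinity IgE receptor, a C-type lectin that is typical of follicular B cells and is induced by interleukin-4. The Fc receptor-like genes are relatives of the Fc receptors, with tyrosine motifs in FCRL1 and FCRL5 and an intracellular protein encoded by Fcrla. Fcrls belongs to the same family and is known from microglia and other macrophage-lineage cells. Regnase-1, encoded by Zc3h12a, is a ribonuclease that cuts messenger RNAs at stem-loops, typically in 3′ untranslated regions.

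Library totals lay between 21407724 and 33244755 counts. Levels are given as TMM-normalized counts divided by the library size in units of 1e6 (CPM), and 3 counts in a library corresponded to 0.0831 to 0.136 CPM. The summed level of 10 pan-B cell markers was 6151 to 7362 CPM in untreated libraries and 2887 to 3201 CPM in stimulated ones. Zc3h12a was 121 to 131 CPM in untreated control libraries and 89.2 to 111 CPM in untreated deficient libraries. After stimulation it was 147 to 157 CPM in control and 92.6 to 113 CPM in deficient libraries. Its log2 difference was -0.32 (adjusted p = 0.106, edgeR) in untreated and -0.58 (adjusted p = 0.000784) in stimulated cells. The counts are per gene and were not split by exon, so reads from the floxed part and from the rest of Zc3h12a cannot be told apart. By their sex-linked genes, 3 of 4 control and 1 of 3 deficient library numbers were female, and with sex as a term no call of a member was lost.

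The stem-loop form that Regnase-1 is known to cut can be looked for in the members' own sequence. The letters searched were a loop of 3 bases (pyrimidine, purine, pyrimidine) closed by at least 5 directly flanking Watson-Crick or G-U pairs, in the longest annotated 3′ untranslated region of each gene. Fcgr2b and Fcrl1 are printed because they held the most matches among the members and both differed between genotypes after stimulation. The loop is in capitals, and positions are in mm10 (GENCODE vM21), on the minus strand for Fcgr2b and the plus strand for Fcrl1.
Fcgr2b, chr1:170960687-170960699: ggatgCATcatct
Fcgr2b, chr1:170960629-170960641: ttcttTATaagga
Fcgr2b, chr1:170959243-170959255: gtgatTATattgt
Fcrl1, chr3:87391637-87391649: ggcttTGCgggtc
Fcrl1, chr3:87391691-87391703: tagagTACttctg
Fcrl1, chr3:87391969-87391983: ttggtgTGCcaccaa
Fcrl1, chr3:87392087-87392101: gattttCATaggatt
The 6 members held 10 matches, 3 in the 2397 bases of Fcgr2b, 4 in the 843 bases of Fcrl1, none in the 1027 bases of Fcrl5, and 1 each in Fcrla, Fcrls and Fcer2a. Fcrl1 thus held 4.75 matches per kb and Fcgr2b 1.25 per kb. Over 11601 tested genes with an annotated 3′ untranslated region, 64.5% held at least 1 match, at 1.09 per kb. With a stem of at least 6 pairs 4 matches remained among the members, 2 of them in Fcrl1 and none in Fcgr2b. At that length 43.9% of the 11601 genes held at least 1 match, at 0.474 per kb. Such a match is a run of letters and not a measured cutting site.

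The 250 bases before the RefSeq start (GRCm38.p6) are shown for the 3 members whose window held the AP-1 letters TGANTCA, searched on both strands. Matches are in capitals. In Fcrl1 these are, in order, the AP-1 letters, an NF-κB consensus and the reverse of the Ets core AGGAAGT. In Fcrl5 they are the reverse of the Ets core and then the AP-1 letters, and in the most upstream of 3 Fcer2a windows the AP-1 letters. The next Fcer2a window is shown because it held, beside AP-1 letters, the STAT6-type letters (TTC and GAA parted by any 4 bases), which come first in it.
Fcrl1, chr3:87376137-87376386, plus strand: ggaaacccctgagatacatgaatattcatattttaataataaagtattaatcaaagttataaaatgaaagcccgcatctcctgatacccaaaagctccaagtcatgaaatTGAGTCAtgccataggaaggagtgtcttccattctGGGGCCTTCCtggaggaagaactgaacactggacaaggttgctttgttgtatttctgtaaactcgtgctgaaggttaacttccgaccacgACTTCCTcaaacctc
Fcrl5, chr3:87435532-87435781, plus strand: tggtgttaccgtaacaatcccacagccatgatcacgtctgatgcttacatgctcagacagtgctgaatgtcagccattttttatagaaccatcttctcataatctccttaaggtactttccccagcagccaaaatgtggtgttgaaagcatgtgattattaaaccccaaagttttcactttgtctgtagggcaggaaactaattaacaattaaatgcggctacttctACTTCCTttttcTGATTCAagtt
Fcer2a, chr8:3694175-3694424, minus strand: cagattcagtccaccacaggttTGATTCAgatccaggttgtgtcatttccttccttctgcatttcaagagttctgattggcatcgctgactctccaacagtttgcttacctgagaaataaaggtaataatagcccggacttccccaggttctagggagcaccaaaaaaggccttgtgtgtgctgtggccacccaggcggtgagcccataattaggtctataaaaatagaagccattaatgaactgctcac
Fcer2a, chr8:3690862-3691111, minus strand: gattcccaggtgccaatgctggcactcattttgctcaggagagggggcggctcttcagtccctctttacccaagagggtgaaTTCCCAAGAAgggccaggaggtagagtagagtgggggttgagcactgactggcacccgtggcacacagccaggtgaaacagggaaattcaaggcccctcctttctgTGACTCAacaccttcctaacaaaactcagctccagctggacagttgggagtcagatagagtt
The AP-1 letters began 140 bases before the start in Fcrl1, 11 in Fcrl5, and 228 and 62 in the Fcer2a windows. The STAT6-type letters began 168 bases before the start. Among 32851 windows of this length, 6.75% held the AP-1 letters, 7.25% the NF-κB consensus, 7.69% the Ets core and 5.85% the STAT6-type letters. The Ets core letters were also in the Fcrls window. The octamer ATGCAAAT, present in 1.6% of windows, and the STAT letters TTCNNNGAA, present in 7.02%, were in none of the members' windows. The last 9 bases of the Fcrl5 window lie in an annotated exon of another transcript. These letters are a description of the windows and say nothing about whether a factor binds there.

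All members except Fcrls were well above the floor, and their order per length was the same in both genotypes. Dividing CPM by the kilobases of annotated exon, untreated control cells held 334 ± 33.6 CPM per kb of Fcrla, 134 ± 8.64 of Fcer2a, 46.3 ± 2.95 of Fcrl1, 23.8 ± 2.02 of Fcgr2b and 4.43 ± 0.49 of Fcrl5 (SD, n = 4). Untreated deficient cells kept that order, with 377 ± 30.0 CPM per kb of Fcrla at the top and 8.02 ± 2.08 of Fcrl5 (SD, n = 3). After stimulation Fcer2a stood first in both genotypes, at 173 ± 12.2 CPM per kb in control and 132 ± 15.5 in deficient cells. Fcrla then stood at 95.8 ± 9.48 and 116 ± 5.50 CPM per kb (SD, n = 3). Neighbours in these orders did not overlap between libraries, except Fcgr2b and Fcrl5 in stimulated deficient cells, at 15.0 ± 1.72 and 9.70 ± 3.24 CPM per kb. The lead of Fcer2a over Fcrla in stimulated deficient cells was hardly more than the SD of Fcer2a. Lengths counted every annotated exon, retained introns included, which lowers the level per kb of Fcgr2b.

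**Figure D1:**
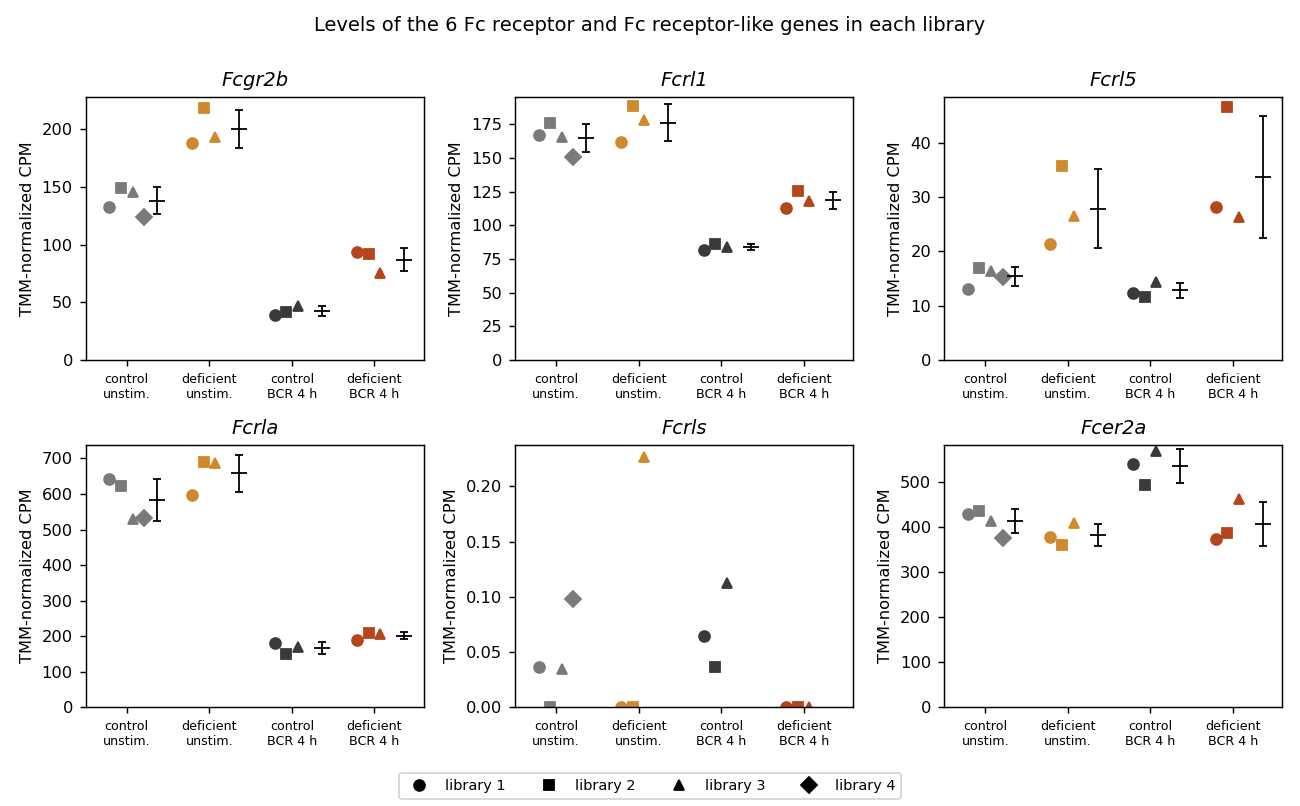
TMM-normalized CPM (vertical axis, from 0, a scale of its own in each panel) of the 6 genes in the 13 libraries; each symbol is a library, the symbol shape its number, and the bar beside each group the mean ± SD (left out for Fcrls). Fcgr2b, Fcrl1 and Fcrla are lower after stimulation in both genotypes, Fcrl5 is highest in deficient library 2 of both states, and Fcrls stays under 0.3 CPM.

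Fcgr2b (chr1:170958617-170976547, minus strand), the inhibitory IgG receptor gene, was higher in deficient cells in both states. In untreated cells it was 133, 149, 146 and 124 CPM in control libraries 1 to 4 and 188, 219 and 193 CPM in deficient libraries 1 to 3. After stimulation it was 39.1, 41.5 and 46.9 CPM in control against 93.2, 92.0 and 75.4 CPM in deficient libraries. In each state every deficient library lay above every control library. The difference was 1.45-fold in untreated cells (log2 0.54 ± 0.09 SE; adjusted p = 0.0174, Benjamini-Hochberg over 13574 genes, edgeR quasi-likelihood test) and 2.04-fold in stimulated cells (log2 1.03 ± 0.10, adjusted p = 4.6e-05). In bulk RNA, fewer cells of a type and less RNA per cell cannot be told apart. The untreated call was lost when an untreated library was left out, with adjusted p = 0.0743 for control 1, 0.0512 for control 4 and 0.105 for deficient 2, while the log2 difference stayed between 0.46 and 0.52. It was also lost with the library number as a block across genotypes (log2 0.49, adjusted p = 0.0551). The numbers do not pair genotypes, so that block is an arbitrary match of libraries.

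Stimulation lowered Fcgr2b in both genotypes. Within the pairs of libraries that share a number, the log2 ratio of stimulated to untreated CPM was -1.76, -1.85 and -1.63 in control against -1.01, -1.25 and -1.36 in deficient cells. The 3 control ratios all lay below the 3 deficient ratios. How many of all genes split in this way was not counted, here or for the other members. Fcgr2b fell by 1.70 ± 0.10 on the log2 scale in control cells (adjusted p = 5.6e-10) and by 1.20 ± 0.10 in deficient cells (adjusted p = 4.1e-08). The difference between these falls was 0.50 ± 0.13 (95% interval 0.21 to 0.78) and was not called in the fit with a mean per group (adjusted p = 0.547). With the pair as a block it was 0.54 ± 0.09 and was called (adjusted p = 0.00554).

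The low-affinity receptor gene Fcgr3 is a close relative of Fcgr2b and can share reads with it. It was 5.03 to 20.7 CPM in untreated and 1.25 to 5.82 CPM in stimulated libraries, with a log2 change of -1.90 in control cells. This counted level was small beside that of Fcgr2b. How reads that match both genes were assigned is not given in these sources, and their part was not tested. Fcgr3 and Fcer1g, the signalling chain of activating Fc receptors, were highest in the same 3 untreated libraries as the myeloid markers. The summed level of 17 myeloid markers was 560 to 855 CPM in control and 505 to 896 CPM in deficient untreated cells. After stimulation it was 317 to 453 CPM and 350 to 483 CPM. With this level as a term, no call of Fcgr2b was lost. An antisense gene, Gm38204, overlaps Fcgr2b over 3175 bases, and whether counting used the strand is not given in these sources.

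Fcrl1 (chr3:87376387-87402934, plus strand), a receptor-like gene whose protein enhances BCR signals, was higher in deficient cells after stimulation and overlapped between genotypes before it. It was 167, 176, 165 and 151 CPM in control against 162, 189 and 178 CPM in deficient untreated libraries. After stimulation it was 82.0, 85.8 and 83.9 CPM in control against 113, 125 and 118 CPM in deficient libraries, with no overlap. The genotype difference was 1.41-fold in stimulated cells (log2 0.50 ± 0.07, adjusted p = 0.000784) and log2 0.10 ± 0.06 in untreated cells (95% interval -0.04 to 0.23, adjusted p = 0.732).

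The fall of Fcrl1 on stimulation was nearly the same in every pair of a genotype. Pair ratios were -1.02, -1.04 and -0.98 on the log2 scale in control against -0.52, -0.59 and -0.60 in deficient cells, without overlap. Fcrl1 fell by 0.97 ± 0.06 in control (adjusted p = 2.1e-09) and by 0.57 ± 0.07 in deficient cells (adjusted p = 2.1e-06). The difference of 0.40 ± 0.09 (95% interval 0.21 to 0.60) was not called with a mean per group (adjusted p = 0.253). It was called with the pair as a block (0.44 ± 0.07, adjusted p = 0.00285) and with the myeloid marker level as a term (0.44, adjusted p = 0.0327).

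Fcrl5 (chr3:87435773-87500678, plus strand), whose protein carries both activating and inhibitory tyrosine motifs and is typical of marginal zone and B-1 cells, had the highest estimate of a genotype difference among the tested members in stimulated cells. Untreated control libraries held 13.1, 17.0, 16.4 and 15.3 CPM and deficient libraries 21.4, 35.7 and 26.5 CPM. Stimulated control libraries held 12.4, 11.6 and 14.4 CPM and deficient libraries 28.2, 46.7 and 26.4 CPM. The genotypes did not overlap in either state, and deficient library 2 was the highest in both. The difference was 2.64-fold after stimulation (log2 1.40 ± 0.23, adjusted p = 0.00771). In untreated cells it was log2 0.86 ± 0.21 (95% interval 0.40 to 1.31, adjusted p = 0.169), which was not called.

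The call of Fcrl5 after stimulation was lost without control stimulated library 1 (log2 1.38, adjusted p = 0.0557) and when only the groups compared entered the fit (log2 1.41, adjusted p = 0.0513). DESeq2 called the untreated difference (log2 0.87, adjusted p = 0.00145), and so did edgeR without deficient stimulated library 2 (log2 0.85, adjusted p = 0.0251). The summed level of 15 marginal zone and B-1 markers was 904 to 1084 CPM in control and 939 to 1125 CPM in deficient untreated libraries. In stimulated libraries it was 1340 to 1609 CPM and 1538 to 1756 CPM. It was highest in deficient library 2 in both states, as Fcrl5 was, and edgeR called 0 of the 15 markers between genotypes in either state (5 untreated and 3 stimulated at an unadjusted p under 0.05). DESeq2 called 0 of them in untreated cells, and 1 higher and 1 lower in stimulated cells. Its part in the level of Fcrl5 was not tested. Leaving out both libraries of deficient number 2, an alternative chosen after seeing these values, kept Fcrl5 called after stimulation (log2 1.09, adjusted p = 0.00149).

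The response of Fcrl5 to stimulation was not called with a mean per group, at log2 -0.27 ± 0.22 in control (adjusted p = 0.306) and 0.28 ± 0.22 in deficient cells (adjusted p = 0.318). Pair ratios were -0.08, -0.55 and -0.18 in control against 0.39, 0.39 and -0.01 in deficient cells. All 3 control ratios were below 0 and below every deficient ratio. With the pair as a block both were called, lower in control (log2 -0.27, adjusted p = 0.0408) where 35.8% of all genes were called lower, and higher in deficient cells (log2 0.26, adjusted p = 0.0309) where 30.8% were called higher. The difference between them, 0.54 ± 0.31 (95% interval -0.13 to 1.22), was called in neither fit (blocked 0.53, adjusted p = 0.208). Without deficient stimulated library 2 the deficient change was -0.03.

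Fcrla (chr1:170917576-170927583, minus strand), which encodes an intracellular protein of B cells that binds immunoglobulin, had the steepest estimated fall of the members on stimulation. Its level was 642, 623, 531 and 532 CPM in control against 598, 691 and 686 CPM in deficient untreated libraries. After stimulation it was 182, 149 and 170.3 CPM in control against 191, 209 and 206 CPM in deficient libraries. The fall was 1.80 ± 0.09 on the log2 scale in control (adjusted p = 9.3e-11) and 1.71 ± 0.09 in deficient cells (adjusted p = 3.4e-10), and untreated and stimulated libraries did not overlap. The difference of the falls was 0.09 ± 0.13 (95% interval -0.17 to 0.36), and pair ratios overlapped between genotypes.

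Between genotypes Fcrla overlapped in untreated cells (log2 0.18 ± 0.08, adjusted p = 0.591). After stimulation all deficient libraries lay above all control libraries by a small margin, log2 0.27 ± 0.09 (95% interval 0.08 to 0.47), which was not called (adjusted p = 0.198). With the myeloid marker level as a term it was 0.30 and was called (adjusted p = 0.0339). A processed pseudogene, Gm2962, lies within Fcrla on the same strand over 336 bases, so some reads may have been assigned to it or dropped.

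Fcer2a (chr8:3681737-3694175, minus strand), the CD23 gene, rose on stimulation in control cells and was afterwards lower in deficient than in control cells. It was 429, 435, 413 and 375 CPM in control against 378, 361 and 408 CPM in deficient untreated libraries, which overlapped. After stimulation control libraries held 539.7, 494 and 568 CPM and deficient libraries 372, 386 and 462 CPM, without overlap. The stimulated difference was log2 -0.39 ± 0.09, a 1.31-fold lower level in deficient cells (adjusted p = 0.0262). In untreated cells it was -0.11 ± 0.08 (95% interval -0.28 to 0.06, adjusted p = 0.762). The stimulated call was lost without any of control stimulated libraries 1 (adjusted p = 0.0963) and 3 (adjusted p = 0.111) and deficient stimulated libraries 1 (adjusted p = 0.0663) and 2 (adjusted p = 0.113), and with only the groups compared (adjusted p = 0.103). It was also lost without both libraries of deficient number 1 (adjusted p = 0.0558) or number 2 (adjusted p = 0.135). In those fits the log2 difference stayed between -0.39 and -0.32.

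Fcer2a rose by log2 0.37 ± 0.08 in control cells (adjusted p = 0.000781). The change in deficient cells was 0.09 ± 0.09 (95% interval -0.09 to 0.27, adjusted p = 0.392), and it turned to just below 0 with upper-quartile factors. Pair ratios were 0.33, 0.18 and 0.46 in control against -0.02, 0.10 and 0.18 in deficient cells. The lowest control ratio, that of pair 2, and the highest deficient ratio, that of pair 3, were nearly equal. The difference of the responses was -0.28 ± 0.12 (95% interval -0.53 to -0.03, adjusted p = 1.0). With the myeloid marker level as a term the rise in control cells was 0.27 and was not called (adjusted p = 0.0706). That level was 560 to 855 CPM in untreated and 317 to 453 CPM in stimulated control libraries. Since it fell with stimulation, the term can take up part of the response.

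Fcrls (chr3:87250758-87263738, minus strand) was at or near the detection limit throughout. It held 1, 0, 1 and 3 counts in control and 0, 0 and 5 counts in deficient untreated libraries. Stimulated control libraries held 2, 1 and 3 counts and stimulated deficient libraries 0, 0 and 0. Over the 13 libraries it held 16 counts of 368632906, with 6 libraries at 0, and it was left out of the tests by the filter on low counts. A count of 0 allows up to 3 counts, or 0.0943 to 0.135 CPM in the stimulated deficient libraries, so a difference between groups was not detectable at this depth.

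Between genotypes more calls were made after stimulation than before it, both among the members and over all genes. The members were chosen with earlier results of these data known, so the shares set beside them are a description. In untreated cells 1 of the 5 members tested was called (Fcgr2b, higher), where 0.324% of 13574 genes were called and 0.125% were called higher. After stimulation 4 were called, 3 higher (Fcgr2b, Fcrl1 and Fcrl5) and 1 lower (Fcer2a), where 2.01% of all genes were called, 0.751% higher and 1.26% lower. Groups did not overlap for 2 of the 5 in untreated cells, against 8.72% of all genes, and for 5 of the 5 after stimulation, against 17.8%. The median log2 difference of the 5 was 0.18 in untreated and 0.50 in stimulated cells, and over all genes it was -0.02 and 0.00. With only the groups compared in the fit, 2 were called after stimulation, Fcgr2b and Fcrl1, where 80 genes were called higher and 128 lower of 12573.

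**Figure D2:**
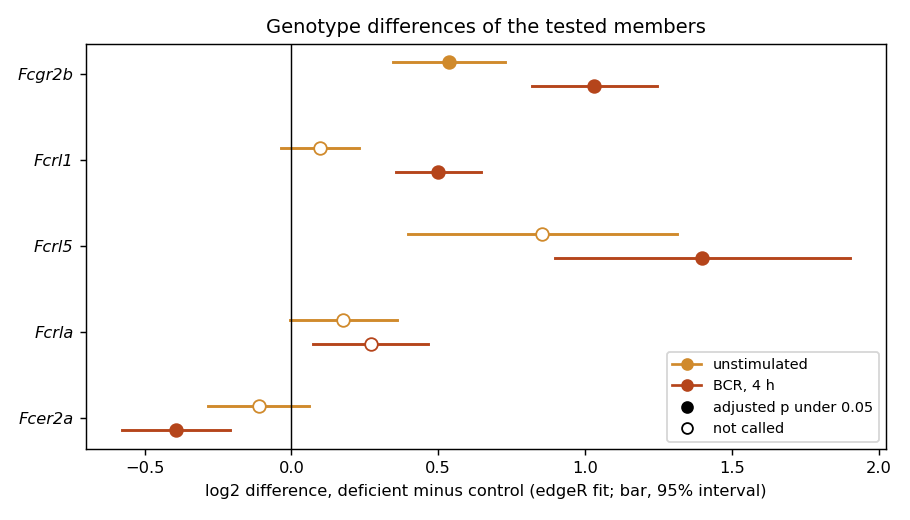
Log2 difference between deficient and control cells (horizontal axis) of the 5 tested genes, untreated (labelled unstimulated) and after 4 h of BCR stimulation; points are edgeR estimates, bars 95% intervals and filled points have an adjusted p under 0.05. In each of the 4 genes Fcgr2b, Fcrl1, Fcrl5 and Fcrla the stimulated estimate lies to the right of the untreated one, and Fcer2a lies below 0, at -0.39 after stimulation.

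Responses to the receptor were common among all genes, so a call there marks the members less. In control cells 4 of the 5 changed, 3 lower and 1 higher, where 60.3% of all genes were called and 31.8% were called lower. In deficient cells 3 changed, all lower, where 57.9% were called and 29.6% were called lower. With the pair as a block Fcrl5 was called as well, which made 5 of the 5 in control and 4 of the 5 in deficient cells. Of 13574 genes, that block called 3991 higher and 4864 lower in control cells, and 4181 higher and 4719 lower in deficient cells. With the myeloid marker level as a term 3 of the 5 were called in control cells, where 3120 genes were called higher and 3819 lower. That level itself fell on stimulation, so the term can take up part of a response. The median response of the 5 was -0.97 in control and -0.57 in deficient cells, beside -0.13 and -0.11 over all genes. A fall was not particular to the members. Of the 10 pan-B cell markers 2 were called higher and 8 lower in each genotype, with medians of -1.22 in control and -1.15 in deficient cells. These comparisons use the same libraries as the genotype comparisons and are not independent of them. The difference of responses was called for 0 of the 5 members by edgeR, while 3 had an unadjusted p under 0.05 (Fcgr2b, Fcrl1 and Fcer2a), and DESeq2 also called 0. Over all genes 0.00737% were called, and with the pair as a block 0.354% were called higher, Fcgr2b and Fcrl1 among them.

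**Figure D3:**
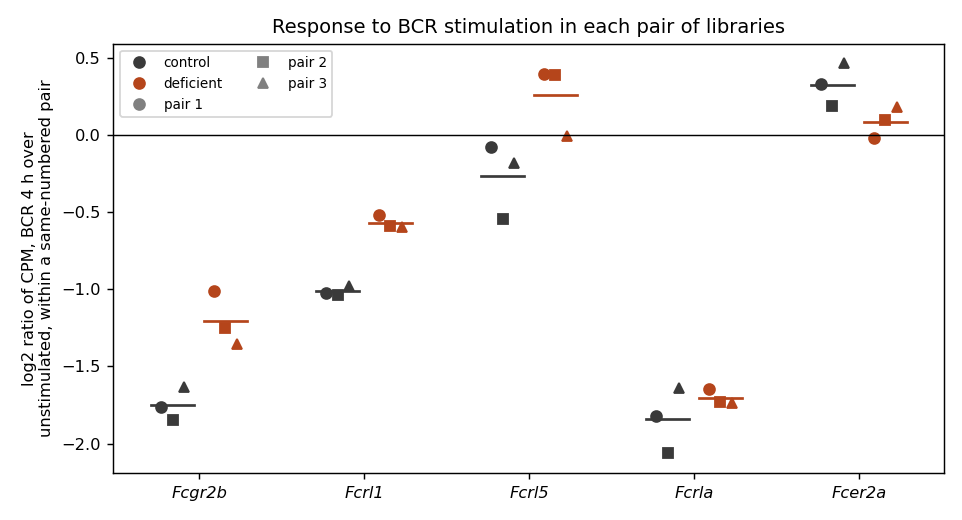
Log2 ratio of CPM after 4 h of BCR stimulation to untreated CPM (vertical axis) in each same-numbered pair of libraries, for the 5 tested genes; symbols give the pair and short lines the mean of the 3 pairs of a genotype. Control and deficient pairs do not overlap for Fcgr2b, Fcrl1 and Fcrl5, nearly touch for Fcer2a (lowest control 0.184, highest deficient 0.177), and overlap for Fcrla. The share of all genes without such overlap was not counted.

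Of a list of 13 other genes for Fc receptors, their chains and receptors of other antibody classes, 10 were tested and 0 were called between genotypes in either state by edgeR or by DESeq2. At an unadjusted p under 0.05 there were 0 in untreated and 1 in stimulated cells. Faim3, the older symbol of the IgM receptor gene Fcmr, was the most abundant of them, at 762 to 919 CPM in untreated and 681 to 817 CPM in stimulated libraries. Fcrlb, an Fc receptor-like gene outside that list, was low, with 5 to 44 counts or 0.188 to 1.32 CPM in a library. In control cells 2 of the 10 rose on stimulation, Trim21 (log2 0.78), a cytosolic antibody receptor, and Pigr (log2 0.71), the polymeric immunoglobulin receptor. Another 2 fell, Fcgrt (log2 -2.95), the neonatal Fc receptor, and Fcgr3. In deficient cells Trim21 rose and Fcgrt, Fcgr3 and Fcamr fell. Over all genes 60.3% were called on stimulation in control and 57.9% in deficient cells.

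FcγRIIB is 1 of several B cell receptors with an ITIM, so 15 other inhibitory receptor genes were read from the same fit. In untreated cells 0 of the 15 were called between genotypes by edgeR, 4 had an unadjusted p under 0.05, and DESeq2 called 2 higher. After stimulation 2 were higher in deficient cells, Pecam1 (log2 0.62, adjusted p = 0.0169) and Cd72 (log2 0.34, adjusted p = 0.0329), an inhibitory coreceptor of the BCR. Siglecg, a sialic acid-binding inhibitory receptor gene, was lower (log2 -0.37, adjusted p = 0.0487). Over all genes 0.751% were called higher and 1.26% lower. Cd72 was 661 to 729 CPM in control and 846 to 911 CPM in deficient stimulated libraries. The median difference of the list was 0.10 after stimulation, beside 0.50 for the 5 Fc receptor genes.

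The phosphatases, kinases and adaptors on which ITIM receptors act, 15 genes including the SHIP-1 gene Inpp5d, gave 0 calls between genotypes in either state by edgeR or DESeq2. Unadjusted p-values under 0.05 numbered 0 in untreated and 1 in stimulated cells. On stimulation 3 rose and 10 fell in control cells, and 3 rose and 12 fell in deficient cells. Over all genes 60.3% were called in control cells, 31.8% lower, and 57.9% in deficient cells, 29.6% lower. Syk, the tyrosine kinase downstream of the BCR, fell by 2.21 on the log2 scale in control cells and Inpp5d by 1.17. The list medians were -0.73 and -0.91, beside -0.97 and -0.57 for the Fc receptor genes and -0.13 and -0.11 over all genes.

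CD23 is induced through the interleukin-4 receptor and STAT6, and 12 genes of this axis and of CD23's partners were read. In untreated cells edgeR called 0 of the 12, with 4 at an unadjusted p under 0.05, and DESeq2 called 2 lower. After stimulation, where 1.26% of all genes were called lower, 3 were lower in deficient cells, as Fcer2a was, and 0 were higher. They were Il2rg, the common cytokine receptor chain (log2 -0.38, adjusted p = 0.00288), Stat6 (log2 -0.31, adjusted p = 0.00982) and Il4ra, the interleukin-4 receptor chain (log2 -0.38, adjusted p = 0.0116). Il4ra was 274 to 312 CPM in control and 211 to 242 CPM in deficient stimulated libraries. Stat6 was 583 to 608 CPM and 450 to 501 CPM, so neither overlapped. In untreated libraries all 3 were also lower in deficient cells without overlap, though not called by edgeR, while Fcer2a overlapped there. Over all genes 8.72% did not overlap in untreated and 17.8% in stimulated cells, in either direction. Untreated Il4ra was 288 to 326 CPM in control and 240 to 266 CPM in deficient libraries. Untreated Il2rg was 639 to 707 CPM and 528 to 588 CPM, and Stat6 378 to 411 CPM and 325 to 354 CPM. Adam10, the protease gene whose product sheds CD23, was 343 to 409 CPM in control and 354 to 393 CPM in deficient stimulated libraries, which overlapped. The list median was -0.03, beside 0.00 over all genes.

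**Figure D4:**
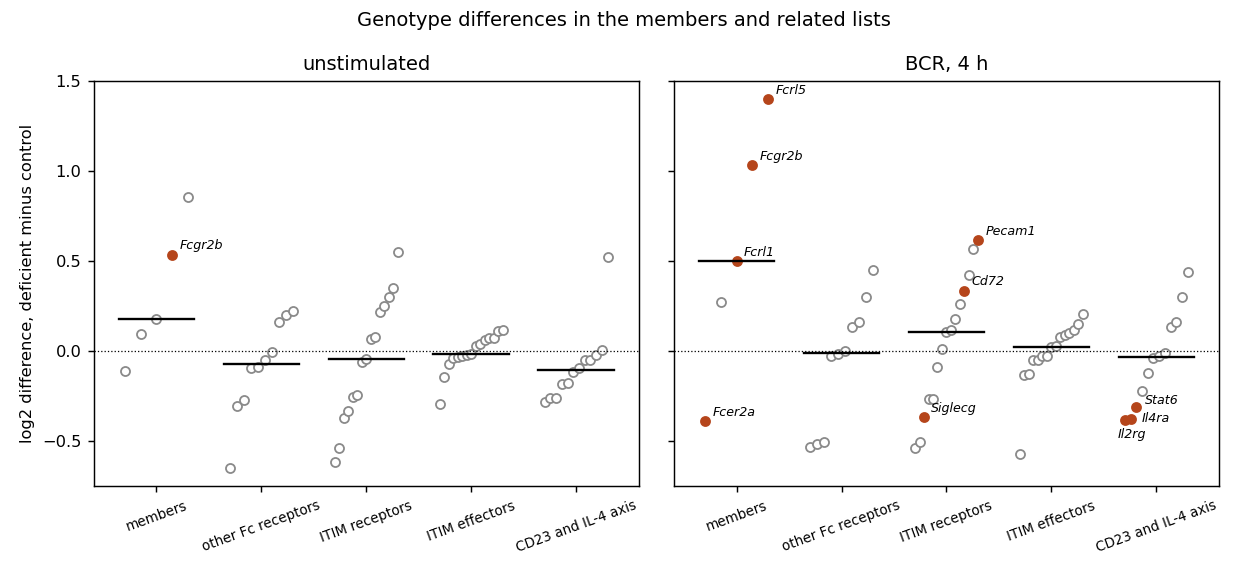
Log2 difference between deficient and control cells (vertical axis) for the 5 tested members and 4 related gene lists, untreated (labelled unstimulated) on the left and after 4 h of BCR stimulation on the right; points are genes ordered by value, filled and named where the adjusted p is under 0.05, and lines are list medians. Only Fcgr2b is filled on the left, and on the right 4 members, 3 inhibitory receptor genes and 3 genes of the interleukin-4 axis are.

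Follicular markers, of which Fcer2a is 1, gave 0 calls of 7 in untreated cells (3 at an unadjusted p under 0.05) and 2 lower in stimulated cells, Fcer2a itself and Cd55 (log2 -0.65, adjusted p = 0.00401). After stimulation 0 of the 7 had a difference above 0, and their median was -0.20. Their summed level, Fcer2a included, was 3618 to 3801 CPM in control and 3344 to 3602 CPM in deficient stimulated libraries. The gap between these ranges was small beside the level of Fcer2a itself, 372 to 568 CPM. The sum contains Fcer2a's own difference, and the part of the other markers in it was not tested. Plasma cell markers summed to 833 to 971 CPM in control and 767 to 910 CPM in deficient untreated libraries. In stimulated libraries they summed to 3135 to 3522 CPM in control and 2452 to 2866 CPM in deficient cells, without overlap. The stimulated sums were mostly 1 gene, Irf4, which reached 3189 CPM in a library, while the next highest marker, Igj, reached 404 CPM. After stimulation 1 of 7 was called lower (Sdc1, log2 -0.68, adjusted p = 0.0486). Atypical B cell markers, of which Fcrl5 is 1, gave 2 of 7 higher after stimulation, Fcrl5 itself and Zeb2 (log2 0.62, adjusted p = 0.00316), a transcription factor gene. Over all genes 0.751% were called higher and 1.26% lower between genotypes after stimulation. The basophil and mast cell receptor genes Fcer1a and Ms4a2 were at 0 in 8 of the 13 libraries each, and the summed level of mast cell and basophil markers was 14.4 to 58.6 CPM. How far a different mix of B cell subsets accompanies the members' differences was not tested.

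The genes whose pattern over the 13 libraries was most like a member's were found by the root mean square difference of centred log2 CPM, among 9079 genes. For Fcgr2b they were Idh1 (0.24), Gimap3 (0.26) and Nedd4 (0.27), where the median gene differed by 0.83. Idh1 was 18.2 ± 1.83 CPM in control and 21.6 ± 3.50 CPM in deficient untreated cells, and 6.71 ± 0.55 and 10.8 ± 1.03 CPM after stimulation, the same order of groups as Fcgr2b. For Fcrl1 they were Ppp3cc (0.10), a calcineurin subunit gene, Pgm2 (0.10) and Galk2 (0.11), where the median was 0.48. Ppp3cc was 80.9 ± 5.75, 85.3 ± 6.50, 45.0 ± 3.34 and 58.5 ± 3.28 CPM in control untreated, deficient untreated, control stimulated and deficient stimulated cells.

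For Fcrl5 the nearest genes were further away, Tnfrsf13b (0.35), which encodes the receptor TACI, Krt222 (0.35) and Pard3b (0.39), beside a median of 0.68. For Fcrla they were Kcnab2 (0.08), Atp13a2 (0.08) and Sh3bgrl3 (0.10), beside 0.89. For Fcer2a they were Rlim (0.09), Il2rg (0.10) and Smc6 (0.10), beside 0.36. Il2rg is also in the interleukin-4 list above, but both readings come from the same 13 libraries, and Rlim was nearer to Fcer2a. The 13 libraries fall into only 4 groups, which any of these genes can share, so these likenesses are descriptions.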

How the data were processed

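Mouse spleen B cell RNA-seq was read from 13 libraries, 4 of untreated control cells and 3 of each other group. Whole-number read counts per gene symbol were deposited by library, and TopHat, HTSeq, DESeq2 and mm10 are named in the submitters' processing notes. The authors also deposited log2 values for 20945 symbols, with a transformation not given in the sources used here. For versions, annotation, strand setting and multi-mapping rule the same holds. The near-identical genes Hba-a1 and Hba-a2 held 0 counts in all libraries, so reads shared between copies may have been dropped.

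Of 23337 symbols, 1 with a missing cell was left out and 18872 had reads. Counts were fitted with edgeR 4.0.16 in R 4.3.3 (filterByExpr by group, minimum count 10, TMM factors, 1 mean per group, robust quasi-likelihood fit over the 13 libraries together). It left 13574 genes to test and 9 residual degrees of freedom. A call is an adjusted p under 0.05 (Benjamini-Hochberg) over all genes tested. SE is the log2 change over the root of F. Library totals were 21407724 to 33244755 counts, and floors cover counting error only. Between replicates chi-square per gene was 8.22 to 36.1, so every pair of libraries differed by more than sampling noise. The test was checked on simulated counts.

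The members and gene lists were chosen with earlier results of these data known. All 6 members were named. Of other lists, counts and up to 4 genes with the smallest p were named, and Faim3, Adam10, Inpp5d, Fcer1g, Fcer1a and Ms4a2 were named for their role. Irf4 and Igj were named for their part in the plasma cell marker sum. For likeness, 3 genes per member were named, at a mean log2 CPM of 2 or more. Of 177 list symbols 166 matched a row, 7 more by an older symbol. Sequences are from RefSeq (GRCm38.p6) and GENCODE vM21 (mm10).

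Across 7315 genes, a library's deviation from its group mean correlated with that of the library of the same number in the other state. The r values were 0.73, 0.65 and 0.54 for control and 0.78, 0.72 and 0.52 for deficient cells, so numbers pair the states within a genotype. The pairing comes from the data, since the labels only share numbers. Other settings tried were upper-quartile factors or size factors as in DESeq2, the test of DESeq2 1.42.0, a filter at 1 CPM in 3 libraries or none, the replicate block, fits of only the groups compared, sex or myeloid marker level as a term, limma 3.58.1 on the log2 tables that the authors deposited, and fits without certain libraries.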

Additional observations from a re-analysis of the deposited data

How the results depend on the processing

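Over 26 other settings, 594 of 620 member values kept their direction and their side of the threshold, 15 lost and 8 gained a call, and 3 changed sign. The members called in untreated cells, 1 of 5, became 0 with the replicate block, 2 with DESeq2, and 0 without both libraries of deficient number 2 (chosen after seeing the data). Calls over all genes moved as well, from 17 higher and 27 lower of 13574 in the main fit to 14 and 23 with the replicate block. DESeq2 called 62 higher and 90 lower of 11182, and without deficient number 2 there were 8 and 7 of 13821. Leaving out a library gave 0 to 2 members called, with 0 without untreated control 1, untreated control 4 or untreated deficient 2. The members called after stimulation, 4 of 5, became 2 with only the groups compared, which has fewer samples, and 2 to 4 on leaving out a library. The myeloid marker level as a term made them 5 by adding Fcrla. Without both libraries of deficient number 1, or of number 2, they were 3, since Fcer2a was lost. Over all genes, 102 higher and 171 lower of 13574 were called in the main fit. With only the groups compared there were 80 and 128 of 12573, and with the myeloid term 190 and 273 of 13574. Without deficient number 1 there were 124 and 174 of 13786, and without number 2 there were 64 and 106 of 13821. The difference of responses, called for 0, gave 1 with the myeloid marker level as a term (Fcrl1) and 2 with the replicate block of the pair (Fcgr2b and Fcrl1). Over all genes, 23 higher and 6 lower of 13574 were called with that term, and 48 and 20 with that block. Leaving out a library gave 0 to 0 members called. Members called on stimulation stayed at 4 in control and 3 in deficient cells on leaving out each library, and were 5 and 4 with the replicate block of the pair. The stem-loop matches fell from 10 to 4 at 6 pairs. The 3 changes of sign were in deficient responses that were not called: Fcer2a with upper-quartile factors (-0.0026) and without stimulated deficient 3 (-0.0087), and Fcrl5 without stimulated deficient 2 (-0.032). Across genotypes, same-numbered libraries correlated with r of -0.53, -0.07 and -0.29 untreated and -0.54, -0.34 and -0.46 stimulated, so the numbers do not pair genotypes. On leaving out a library, the deficient response of Fcrl5 ranged from -0.032 to 0.50 and that of Fcer2a from -0.0087 to 0.18. The cause of these shifts was not tested. Depth limits Fcrls only, at most 5 counts in a library.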
